A study of Mus musculus with 10 samples.

Results

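Peaks of p65, a DNA-binding subunit of the transcription factor NF-κB, were examined at 10 mouse genes of the Nrf2 antioxidant pathway: Nfe2l2, Keap1, Slc7a11, Gclc, Gclm, Gsr, Txnrd1, Srxn1, Nqo1 and Hmox1. They were taken from 21887 protein-coding genes of the RefSeq table of GRCm38.p6, and a peak was counted for a gene when it overlapped the gene body or the 10 kb on either side. RAW264.7 cells, a wild-type mouse macrophage line from a male tumour induced by Abelson murine leukaemia virus, were treated for 12 h with DMSO, with DMSO plus lipopolysaccharide (LPS), or with LPS plus skatole. LPS is a bacterial product that activates macrophages, and skatole is an indole made from tryptophan by gut bacteria. Each of the 3 treatments had 3 CUT&Tag libraries of 200000 cells, called DMSO, LPS and LPS+Skatole below. Nothing in the labels says that the libraries of a treatment came from separate cultures, so all p-values measure only the spread between these libraries, which may be technical. In CUT&Tag, a transposase tethered through an antibody cuts the chromatin around the bound protein, and the fragments it frees are sequenced. The sample labels name a p65 antibody and the methods name one against phosphorylated p65, so the form captured is not settled. Of the 10 samples in the series, 1 made without primary antibody was not analysed here, and no value below is corrected for it.

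Nrf2, the product of Nfe2l2, is a transcription factor that Keap1 holds for degradation in resting cells. Oxidants and electrophiles modify Keap1, Nrf2 then accumulates, pairs with small Maf proteins and binds antioxidant response elements near genes for glutathione synthesis, thioredoxin-based repair, quinone reduction and haem breakdown. In macrophages this programme is induced together with the inflammatory response to LPS and limits it, and p65 and Nrf2 are known to affect each other's activity.

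The peak lists differed in length and depth, which bears on every count below. They held 37551 to 43450 peaks in DMSO, 55637 to 63498 in LPS and 78136 to 80153 in LPS+Skatole libraries. The genome background, the fragments expected per position under a peak model assumed here, was used as a measure of relative depth. It was 1.09 to 1.40 in DMSO, 2.23 to 2.34 in LPS and 2.26 to 2.39 in LPS+Skatole. Counts were therefore also made after each list was shortened to its 37551 strongest peaks by −log10 p, the length of the shortest list. The known NF-κB targets were present in all libraries. Nfkbia, which encodes the inhibitor IκBα, held 3 to 10 peaks per library, Tnfaip3, which encodes the inhibitor A20, 3 to 10, and the cytokine gene Tnf 7 to 10. The strongest Tnfaip3 peak lay nearer the top of its list in every LPS library, at ranks 860 to 1765, than in the DMSO libraries, at 2212 to 3015, while the ranks overlapped between these groups for Nfkbia (286 to 14186 with DMSO, 316 to 9409 with LPS) and for Tnf (3474 to 6027 and 3333 to 3974).

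The sequences just upstream of 4 transcription starts are shown because, in the full lists, called regions or counts at or near them differed between treatments. They come from RefSeq (GRCm38.p6), run 5′ to 3′ on the strand of the gene and end at the base before the gene or, for Slc7a11, before its start in the promoter table. Capitals mark matches on either strand to an antioxidant response element, searched as TGACNNNGC or TGAGNNNGC. The stretches lie at chr2:152105274-152105523 (Srxn1, plus strand), chr8:107403206-107403455 (Nqo1, minus strand), chr3:122245307-122245486 (Gclm, plus strand) and chr3:50443614-50443863 (Slc7a11, minus strand).
Srxn1: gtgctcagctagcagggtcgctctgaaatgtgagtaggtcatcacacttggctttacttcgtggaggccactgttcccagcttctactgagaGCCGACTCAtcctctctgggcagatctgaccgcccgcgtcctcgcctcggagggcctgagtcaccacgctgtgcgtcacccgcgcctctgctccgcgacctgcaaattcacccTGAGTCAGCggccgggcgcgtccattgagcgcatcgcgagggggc
Nqo1: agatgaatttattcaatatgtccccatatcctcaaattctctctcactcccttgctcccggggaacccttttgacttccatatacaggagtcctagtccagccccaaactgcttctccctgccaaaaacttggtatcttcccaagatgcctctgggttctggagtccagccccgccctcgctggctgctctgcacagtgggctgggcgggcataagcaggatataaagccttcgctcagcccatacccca
Gclm: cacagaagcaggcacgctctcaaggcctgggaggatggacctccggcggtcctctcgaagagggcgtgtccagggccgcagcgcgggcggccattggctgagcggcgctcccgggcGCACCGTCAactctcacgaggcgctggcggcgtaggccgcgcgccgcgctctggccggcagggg
Slc7a11: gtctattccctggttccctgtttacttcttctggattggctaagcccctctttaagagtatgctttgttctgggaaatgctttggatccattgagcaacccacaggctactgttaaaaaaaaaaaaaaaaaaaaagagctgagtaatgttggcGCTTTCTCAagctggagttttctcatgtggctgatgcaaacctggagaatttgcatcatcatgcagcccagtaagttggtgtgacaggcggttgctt

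Promoter sequences of 300 bases, 250 before the start and 50 after it, were held for 7 of the 10 genes, 9 promoters in all. TGACNNNGC was present in 12.4% of all 32851 promoters and TGAGNNNGC in 17.6%. TGACNNNGC occurred once each in the promoters of Nfe2l2, Gclm and Srxn1 and in 1 of the 3 promoters of Txnrd1. TGAGNNNGC occurred at 2 places in the Srxn1 promoter and at 1 in that of Slc7a11. In Srxn1 the match that begins at -45 bp from the start overlaps an AP-1 site (TGANTCA, present in 7.81% of all promoters), and a further AP-1 site begins at -102 bp. The promoters of Nqo1 and Keap1 held neither form of the element in this window. A general κB consensus, present in 8.46% of all promoters, had 0 matches in the 9. A match describes the letters and not binding.

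Over the 10 genes together, the libraries held 40, 49 and 53 peaks with DMSO, 66, 80 and 76 with LPS, and 99, 101 and 100 with LPS+Skatole. The 3 groups did not overlap, and the order was that of the list lengths. Per 1000 peaks of a list the genes held 1.07 to 1.29, 1.19 to 1.38 and 1.25 to 1.29 peaks, values that overlapped between all groups. In lists of equal length the totals were 40, 46 and 51 with DMSO, 48, 55 and 51 with LPS, and 54, 62 and 59 with LPS+Skatole. Here the LPS+Skatole values lay above all DMSO values and reached into the range of LPS.

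**Figure D1:**
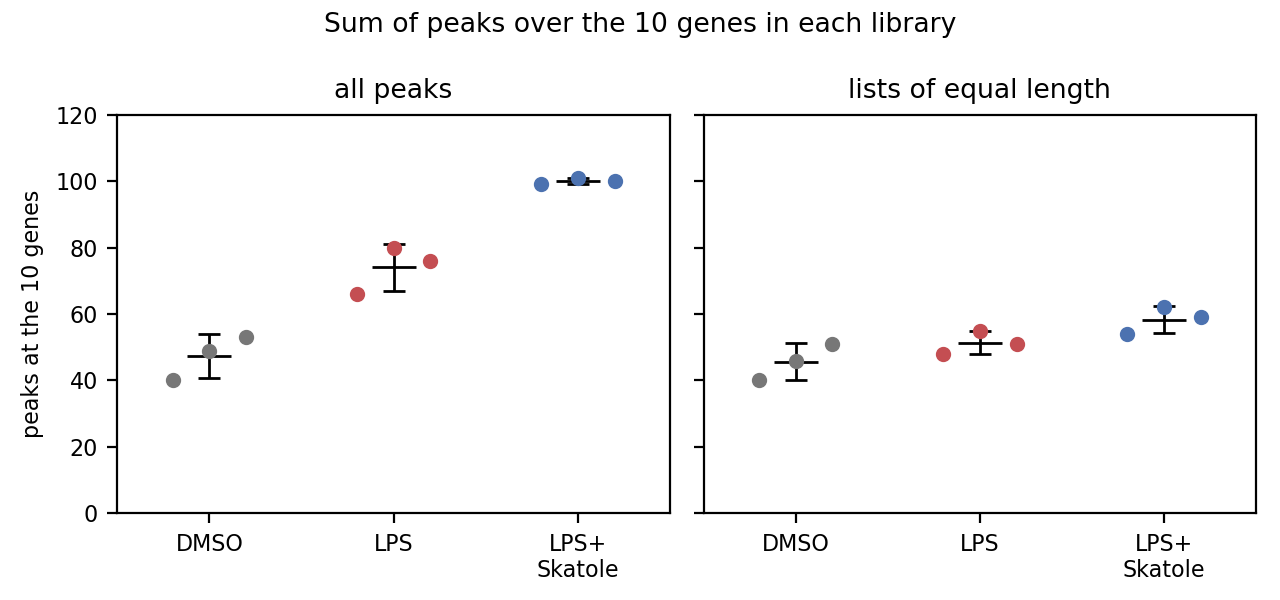
Peaks summed over the 10 genes (vertical axis) in each library, for all peaks (left) and for lists cut to the same length (right). Points are libraries, and lines give the group mean and SD of 3 libraries. With all peaks the groups separate, from 40 to 53 in DMSO to 99 to 101 in LPS+Skatole, and with equal lists the LPS and LPS+Skatole values overlap.

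A gene was called higher or lower in a comparison when its peak numbers in the 3 libraries of one group all lay above or below those of the other. Such a separation gives an exact two-sided permutation p = 0.1, the smallest that 3 libraries against 3 allow, and no gene passed Benjamini-Hochberg adjustment over all genes tested. With LPS against DMSO, 4 of the 10 genes were higher, where 13.1% of 18192 genes were, and 0 were lower, where 0.390% were. With LPS+Skatole against LPS, 4 were higher, where 9.27% of 19139 genes were, and 1 was lower, where 0.789% were. With LPS+Skatole against DMSO, 7 were higher, where 26.0% of 19115 genes were, and 0 were lower, where 0.178% were. The median difference in mean peak number over the 10 genes was 2.5, 2.33 and 4 in these comparisons. Over all genes tested it was 0.667, 0.667 and 1.33. The median ratio of the group means lay closer, at 1.497, 1.343 and 1.972 over the 10 genes. Over all genes tested this ratio was 1.333, 1.2 and 1.625. Neither the differences nor the calls were adjusted for the number of peaks a gene held. The comparisons share libraries and are not independent of each other.

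With lists of equal length the calls were fewer. LPS against DMSO then gave 0 higher, where 3.16% of genes were, and 1 lower, Gclm, where 2.59% were. LPS+Skatole against LPS gave 2 higher, Slc7a11 and Gclm, where 1.86% of genes were, and 1 lower, Keap1, where 2.41% were. LPS+Skatole against DMSO gave 2 higher, Slc7a11 and Srxn1, where 3.65% of genes were, and 0 lower, where 3.64% were.

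**Figure D2:**
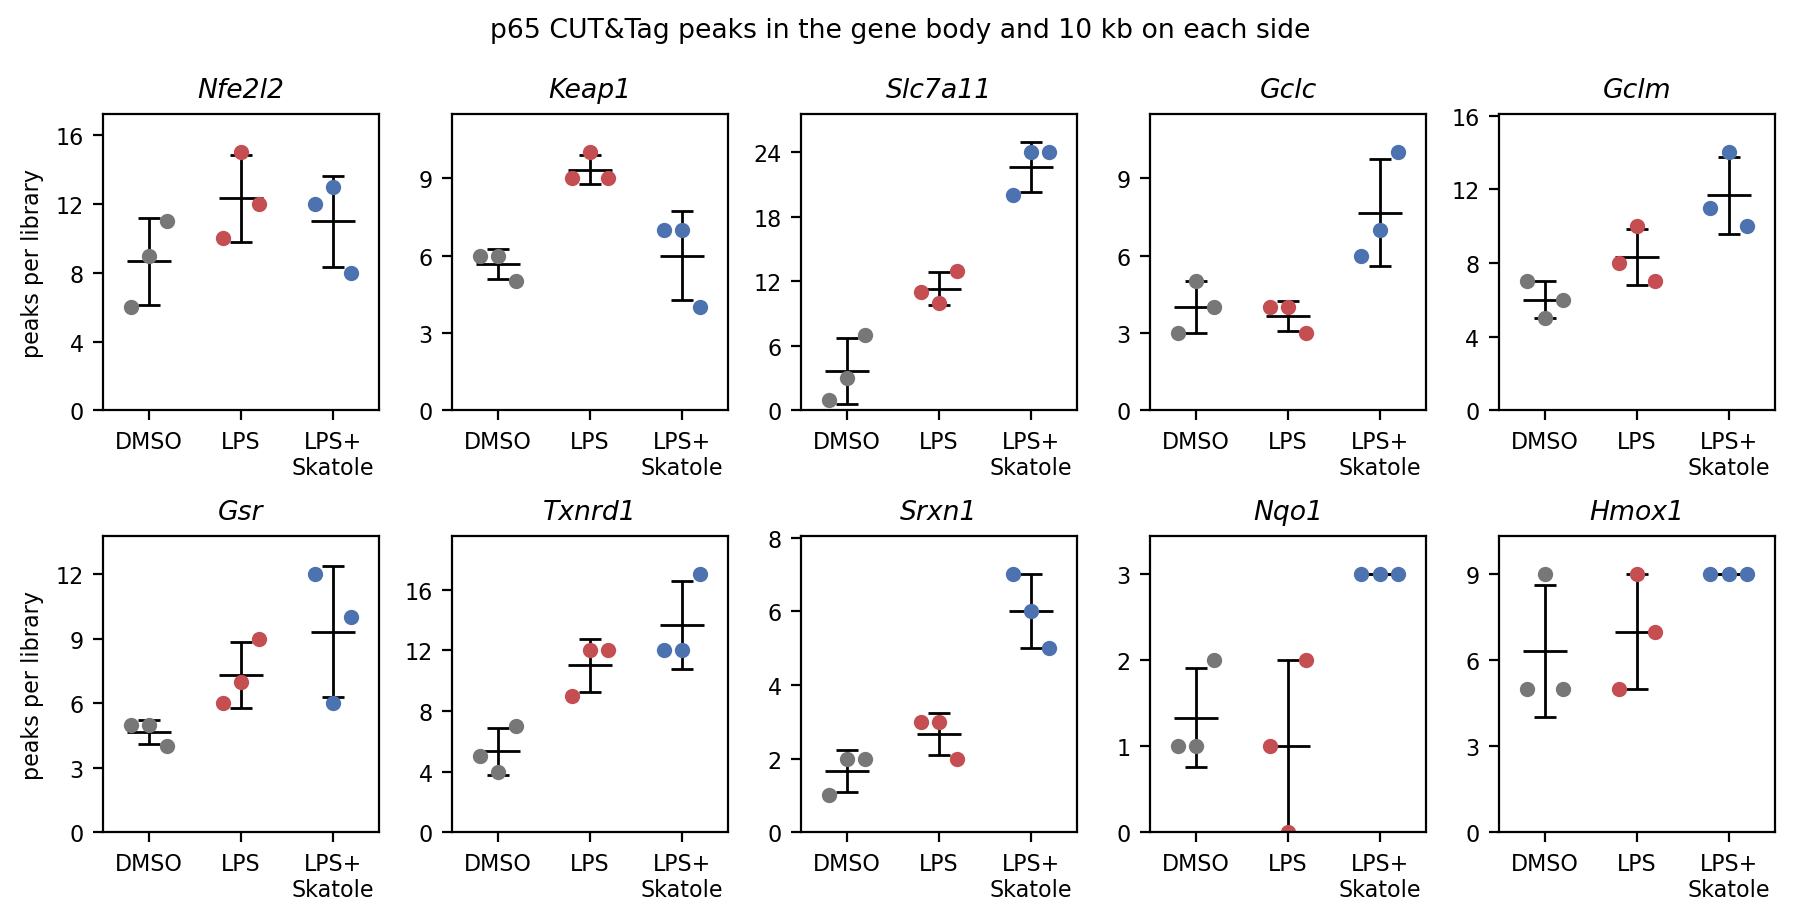
Number of peaks in the gene body and 10 kb on each side (vertical axis, scaled per gene) for each of the 10 genes. Points are libraries, and lines give the mean and SD of 3 libraries. Slc7a11 is highest in LPS+Skatole with 20 to 24 peaks, while Keap1 holds 9 to 10 peaks in LPS and 4 to 7 in LPS+Skatole.

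The regulators came first. Nfe2l2 (chr2:75675513-75704663), which encodes Nrf2 itself, held 6, 9 and 11 peaks with DMSO, 10, 15 and 12 with LPS, and 12, 13 and 8 with LPS+Skatole. Its means of 8.67 ± 2.52, 12.3 ± 2.52 and 11 ± 2.65 (SD, n = 3) overlapped in all comparisons. With flanks of 3 kb it held 6, 7 and 7 peaks with DMSO, 8, 11 and 10 with LPS, and 11, 11 and 8 with LPS+Skatole. Both treatments with LPS were then higher than DMSO, where 10.6% and 21.4% of all genes were. Of its 17 regions, 4 were called in all 9 libraries, all of them in the gene body, and one of these covered the transcription start (chr2:75701031-75705906). Its strongest peak ranked 1026 to 4030 from the top over the 9 lists, with no separation between treatments. For the region at the start, the summit given is that of the peak with the largest −log10 p, and a library can have several peaks there. This summit lay at places up to 2819 bp apart. It lay at -79, -6 and -80 bp from the start with DMSO, at 2240, 935 and 2706 bp with LPS, and at -80, 1135 and 2739 bp with LPS+Skatole. All DMSO summits were thus at the start, all LPS summits inside the gene, and LPS+Skatole summits at either place.

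Keap1 (chr9:21229730-21239332), the adaptor that delivers Nrf2 to a ubiquitin ligase, was called lower with LPS+Skatole than with LPS. It held 6, 6 and 5 peaks with DMSO, 9, 10 and 9 with LPS, and 7, 7 and 4 with LPS+Skatole, with means of 5.67 ± 0.577, 9.33 ± 0.577 and 6 ± 1.73. It was higher in LPS than in DMSO and lower in LPS+Skatole than in LPS, without overlap in either comparison, and the second separation held with equal lists (8, 6 and 7 against 4, 5 and 3). With the gene body alone Keap1 was not called lower, at a mean difference of -1.33. Its 2 regions called in all 9 libraries were a region over the transcription start (chr9:21234368-21240285) and one in the flank beyond the gene's 3′ end (chr9:21219174-21226843). The latter ranked 1965, 1587 and 2035 from the top with DMSO, 2078, 1695 and 853 with LPS, and 2355, 4630 and 3852 with LPS+Skatole. The LPS+Skatole lists are the longest, and as a percentile of its list this region averaged 95.4 ± 0.865 with DMSO, 97.3 ± 1.22 with LPS and 95.4 ± 1.48 with LPS+Skatole. Its summit counts were 93, 99 and 137 fragments with LPS and 111, 84 and 96 with LPS+Skatole, which overlapped. The region over the start had summit counts of 103, 90 and 80 with LPS and 102, 75 and 66 with LPS+Skatole, which overlapped too, and its summit lay 1539 to 2077 bp inside the gene in 8 libraries and at 159 bp in the other one.

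Cystine import and glutathione synthesis came next. Slc7a11 (chr3:50364936-50499087), the cystine carrier of system xc-, gave the largest absolute differences in mean peak number of the 10 genes in the full lists. At 134152 bp it is also the longest of the 10, and peak number was not adjusted for gene length. Slc7a11 held 1, 3 and 7 peaks with DMSO, 11, 10 and 13 with LPS, and 20, 24 and 24 with LPS+Skatole. The means of 3.67 ± 3.06, 11.3 ± 1.53 and 22.7 ± 2.31 did not overlap in any comparison, a ratio of 2 between LPS+Skatole and LPS. With equal lists the numbers were 1, 3 and 7, then 7, 8 and 10, then 11, 12 and 14, so that the DMSO and LPS ranges touched while LPS+Skatole stayed above both.

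Of its 38 regions, 20 were called in a single library, and 31 lay in the gene body more than 3 kb from either gene end. Only 1 was called in all 9 libraries. That region, 36738 bp inside the gene from the start used here (chr3:50401136-50409577), held the gene's strongest peak in every library. Its summit counts were 37, 22 and 29 with DMSO, 67, 61 and 76 with LPS, and 120, 83 and 109 with LPS+Skatole. Its rank from the top was 4166, 14186 and 9180, then 3845, 4569 and 3533, then 1497, 3977 and 2116, so that LPS+Skatole was nearer the top than DMSO in every library and overlapped LPS. A region near the start (chr3:50434188-50442454, median summit at 4782 bp) was not called in DMSO library 1 and had counts of 31 and 23 in the other DMSO libraries. The counts there were 62, 64 and 70 with LPS and 151, 117 and 107 with LPS+Skatole. The region over the start itself (chr3:50443187-50444687) was called in 0 DMSO libraries, in LPS library 1 with 33 fragments, and in the LPS+Skatole libraries with 94, 30 and 71 fragments. With equal lists it was called in 1 LPS+Skatole library and in 0 others.

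Gclc (chr9:77754535-77794489), the catalytic subunit of the enzyme that limits glutathione synthesis, held 3, 5 and 4 peaks with DMSO, 4, 4 and 3 with LPS, and 6, 7 and 10 with LPS+Skatole. It was higher with LPS+Skatole than with either other treatment, at 7.67 ± 2.08 against 3.67 ± 0.577 in LPS. In equal lists it held 3, 5 and 3 peaks with DMSO, 1, 1 and 3 with LPS, and 1, 3 and 2 with LPS+Skatole. These overlapped in all comparisons, and the difference in means between LPS+Skatole and DMSO turned to -1.67. Of its 20 regions, 13 were called in a single library. Its strongest peak ranked no higher than 9544 from the top in any list.

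Gclm (chr3:122245487-122267215), the modifier subunit of the same enzyme, held 7, 5 and 6 peaks with DMSO, 8, 10 and 7 with LPS, and 11, 14 and 10 with LPS+Skatole. The means were 6 ± 1, 8.33 ± 1.53 and 11.7 ± 2.08, and LPS+Skatole was separate from DMSO but touched LPS at 10 peaks. With equal lists the numbers were 7, 5 and 6 with DMSO, 4, 2 and 4 with LPS, and 9, 8 and 6 with LPS+Skatole, so that LPS was lowest and separate from both. The direction between LPS and DMSO at this gene therefore turned with the length of the lists. The region over its start (chr3:122244125-122246327) was called in all 9 libraries, with summits within 45 bp of each other, at -226 to -181 bp from the start. Its summit counts were 74, 65 and 56 with DMSO, 126, 74 and 111 with LPS, and 163, 136 and 98 with LPS+Skatole.

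The Gclm summit thus kept its place in every library, upstream of the start and within the stretch printed above, whose element begins at -134 bp. Around it, 2 regions were called in all LPS+Skatole libraries and in 0 of the other 6, and with equal lists each was called in 2 of the LPS+Skatole libraries. One lay upstream, with a median summit at -2144 bp (chr3:122242564-122243545) and counts of 41, 58 and 86. The other lay 7067 bp inside the gene (chr3:122252389-122252926) with counts of 35, 21 and 29. A further region with its summit at -9483 bp (chr3:122235678-122237068) had counts of 32, 40 and 35 with LPS+Skatole, 12 in LPS library 3 and no peak in the other 5 libraries, and with equal lists it was called in the 3 LPS+Skatole libraries alone.

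Gsr (chr8:33653238-33698162), the reductase that regenerates glutathione, held 5, 5 and 4 peaks with DMSO, 6, 7 and 9 with LPS, and 12, 6 and 10 with LPS+Skatole. The means were 4.67 ± 0.577, 7.33 ± 1.53 and 9.33 ± 3.06, and both treatments with LPS were higher than DMSO. In equal lists these calls were lost, with 5, 4 and 4, then 5, 7 and 6, then 6, 2 and 8 peaks. The strongest peak inside the window ranked 10202, 10561 and 13663 with DMSO, 8763, 5482 and 7284 with LPS, and 3262, 3859 and 4001 with LPS+Skatole. The last separation depended on a region at the neighbouring gene Ubxn8 that enters the window by 90 bp. Without that region the rank in LPS+Skatole library 1 was 6106, which lay within the LPS values.

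Thioredoxin and peroxiredoxin repair followed. Txnrd1 (chr10:82833951-82897724), the cytosolic thioredoxin reductase, held 5, 4 and 7 peaks with DMSO, 9, 12 and 12 with LPS, and 12, 12 and 17 with LPS+Skatole. Both treatments with LPS were higher than DMSO, at 11 ± 1.73 and 13.7 ± 2.89 against 5.33 ± 1.53, and they overlapped each other. In equal lists the numbers overlapped in all comparisons (5, 4 and 7, then 8, 8 and 3, then 5, 9 and 9). The region over the second of its listed starts (chr10:82857965-82860074) held the strongest peak of the gene in all 9 libraries. Its counts were 67, 92 and 101 with DMSO, 129, 136 and 158 with LPS, and 215, 125 and 177 with LPS+Skatole. It was among the strongest of any list, at ranks 249 to 1750, and its ranks overlapped between the treatments. In the gene body, a weak region (chr10:82879884-82880727) was called in the LPS libraries alone, with counts of 16, 12 and 13. In equal lists it was called in 0 libraries.

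Srxn1 (chr2:152105524-152111376), sulfiredoxin, which restores over-oxidised peroxiredoxins, separated all 3 treatments by the summit counts at its transcription start. It held 1, 2 and 2 peaks with DMSO, 3, 3 and 2 with LPS, and 7, 6 and 5 with LPS+Skatole. The means of 1.67 ± 0.577, 2.67 ± 0.577 and 6 ± 1 separated LPS+Skatole from both other treatments, with 2.25 times as many peaks as LPS. With equal lists the numbers were 1, 2 and 2, then 3, 2 and 2, then 4, 3 and 3, and LPS+Skatole remained separate from DMSO only.

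The region over the Srxn1 start (chr2:152104356-152105995) was called in all 9 libraries. Its summit counts were 55, 49 and 41 with DMSO, 101, 98 and 100 with LPS, and 189, 174 and 160 with LPS+Skatole. All LPS+Skatole counts lay above all LPS counts, at a genome background that differed little. Divided by the genome background, they were 50.5, 35 and 30.1 with DMSO, 44.1, 43.9 and 42.7 with LPS, and 80.8, 77 and 66.9 with LPS+Skatole, so that only LPS+Skatole stood apart. The rank from the top was 2340, 5051 and 6749, then 1853, 1989 and 2467, then 446, 551 and 917. The summits lay between -463 and 41 bp from the start, and those of the LPS and LPS+Skatole libraries all at -194 bp or closer, while those of DMSO lay between -463 and -343 bp. The LPS and LPS+Skatole summits thus fell in the printed stretch, which holds elements that begin at -158 and -45 bp, or just after it. A flanking region (chr2:152111609-152112438, 650 bp beyond the gene) was found in 2 LPS libraries, in all 3 LPS+Skatole libraries and in 0 of the DMSO libraries.

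**Figure D3:**
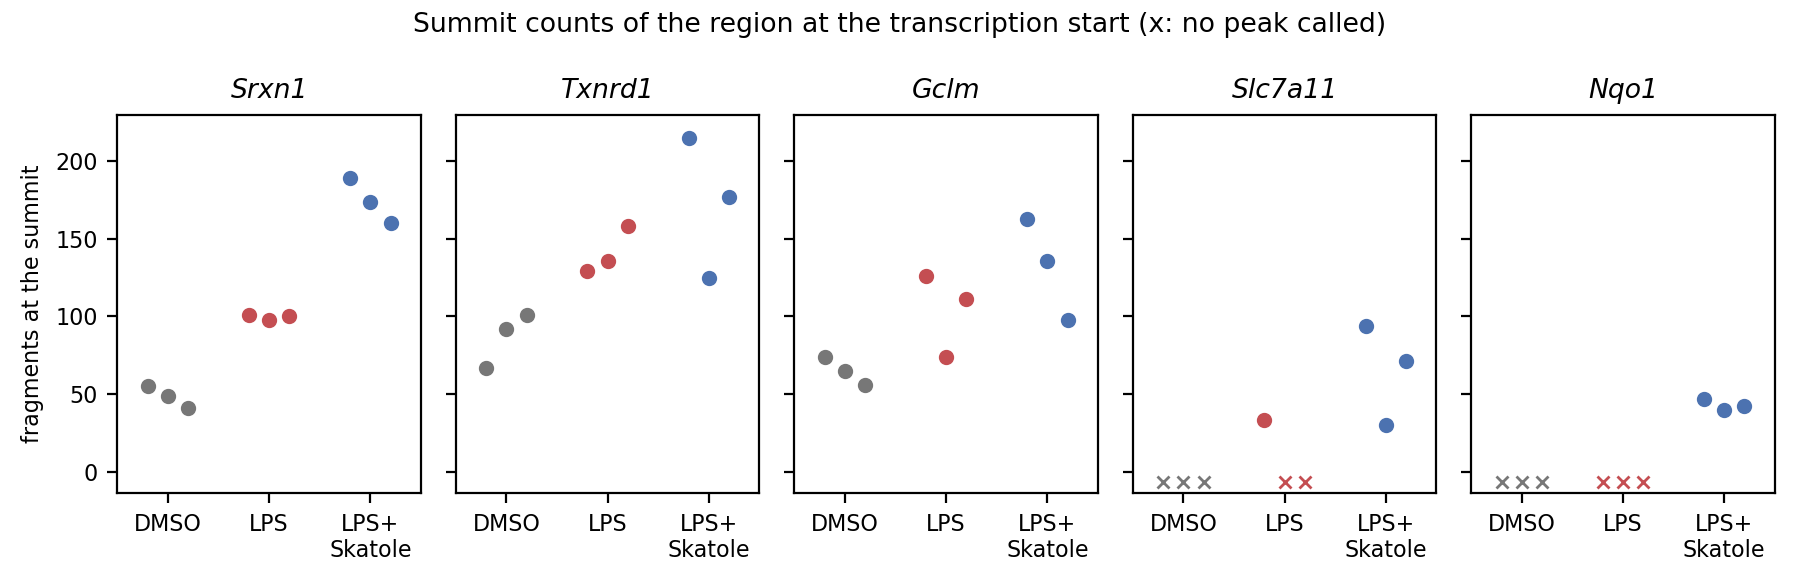
Fragments at the summit of the region over the transcription start (vertical axis) for 5 genes. Points are libraries, and crosses below 0 mark libraries with no peak called. Srxn1 separates into 41 to 55, 98 to 101 and 160 to 189 fragments, and the Nqo1 start was called in LPS+Skatole libraries only.

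Quinone and haem detoxification closed the list. Nqo1 (chr8:107388225-107403205), a quinone reductase and a standard readout of Nrf2, held few peaks without skatole. It held 1, 1 and 2 peaks with DMSO, 1, 0 and 2 with LPS, and 3 every time with LPS+Skatole. LPS+Skatole was higher than both other treatments, at 3 ± 0 against 1.33 ± 0.577 and 1 ± 1. In equal lists the numbers (1, 1 and 2, then 1, 0 and 0, then 1, 2 and 2) overlapped. None of its 9 regions was called in all libraries, and 5 were called in a single one.

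The Nqo1 transcription start itself carried a region (chr8:107403174-107403786) called in the 3 LPS+Skatole libraries and in 0 of the other 6. The summits lay at -191, 23 and -160 bp from the start, with counts of 47, 40 and 42 fragments. The separation held with lists of equal length, in 3 LPS+Skatole libraries and 0 others. The peak was of middling strength, with an authors' fold over local background of 6.06, 5.47 and 5.18 and ranks of 24056, 30181 and 31107 from the top. Since the lists give no value where no peak was called, the count there in the other libraries is known only to have missed the caller's threshold. A weaker region 8334 bp upstream (chr8:107411330-107412220) had counts of 18, 23 and 24 with LPS+Skatole and 11 in DMSO library 3, and no peak with LPS. With equal lists it was called in 2 LPS+Skatole libraries and 1 DMSO library.

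Hmox1 (chr8:75093618-75100593), haem oxygenase, held 5, 9 and 5 peaks with DMSO, 5, 9 and 7 with LPS, and 9 every time with LPS+Skatole. The means of 6.33 ± 2.31, 7 ± 2 and 9 ± 0 overlapped in all comparisons. Its 3 regions called in every library all lay in the flanks more than 3 kb from the gene. The strongest of them (chr8:75108638-75110044) covers the start of the neighbouring gene Mcm5, a replication helicase subunit, so its peak cannot be assigned to Hmox1. It ranked 844, 777 and 1127 from the top with DMSO, 1356, 1254 and 1736 with LPS, and 4115, 2513 and 12493 with LPS+Skatole. In lists that lengthen in the same order, its percentile averaged 97.7 ± 0.482, 97.6 ± 0.288 and 92.0 ± 6.64, with DMSO and LPS overlapping. Its summit counts were 73, 95 and 82 fragments with DMSO, 103, 105 and 104 with LPS, and 86, 102 and 51 with LPS+Skatole. The LPS counts thus lay above those of both other treatments, which overlapped each other, but the DMSO libraries are shallower. The order of DMSO and LPS turned in the log2 fold over local background, centred on the median of each library. It was 1.59, 1.66 and 1.49 with DMSO, 1.32, 1.37 and 1.23 with LPS, and 0.74, 1.04 and -0.06 with LPS+Skatole. LPS differed from DMSO by -0.27 ± 0.28 (SE; limma, adjusted p = 0.768). At the gene's own lower end a region (chr8:75092492-75093872) was present in 8 of the 9 libraries (not in DMSO library 3) with an authors' fold of 2.32 to 4.37.

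**Figure D4:**
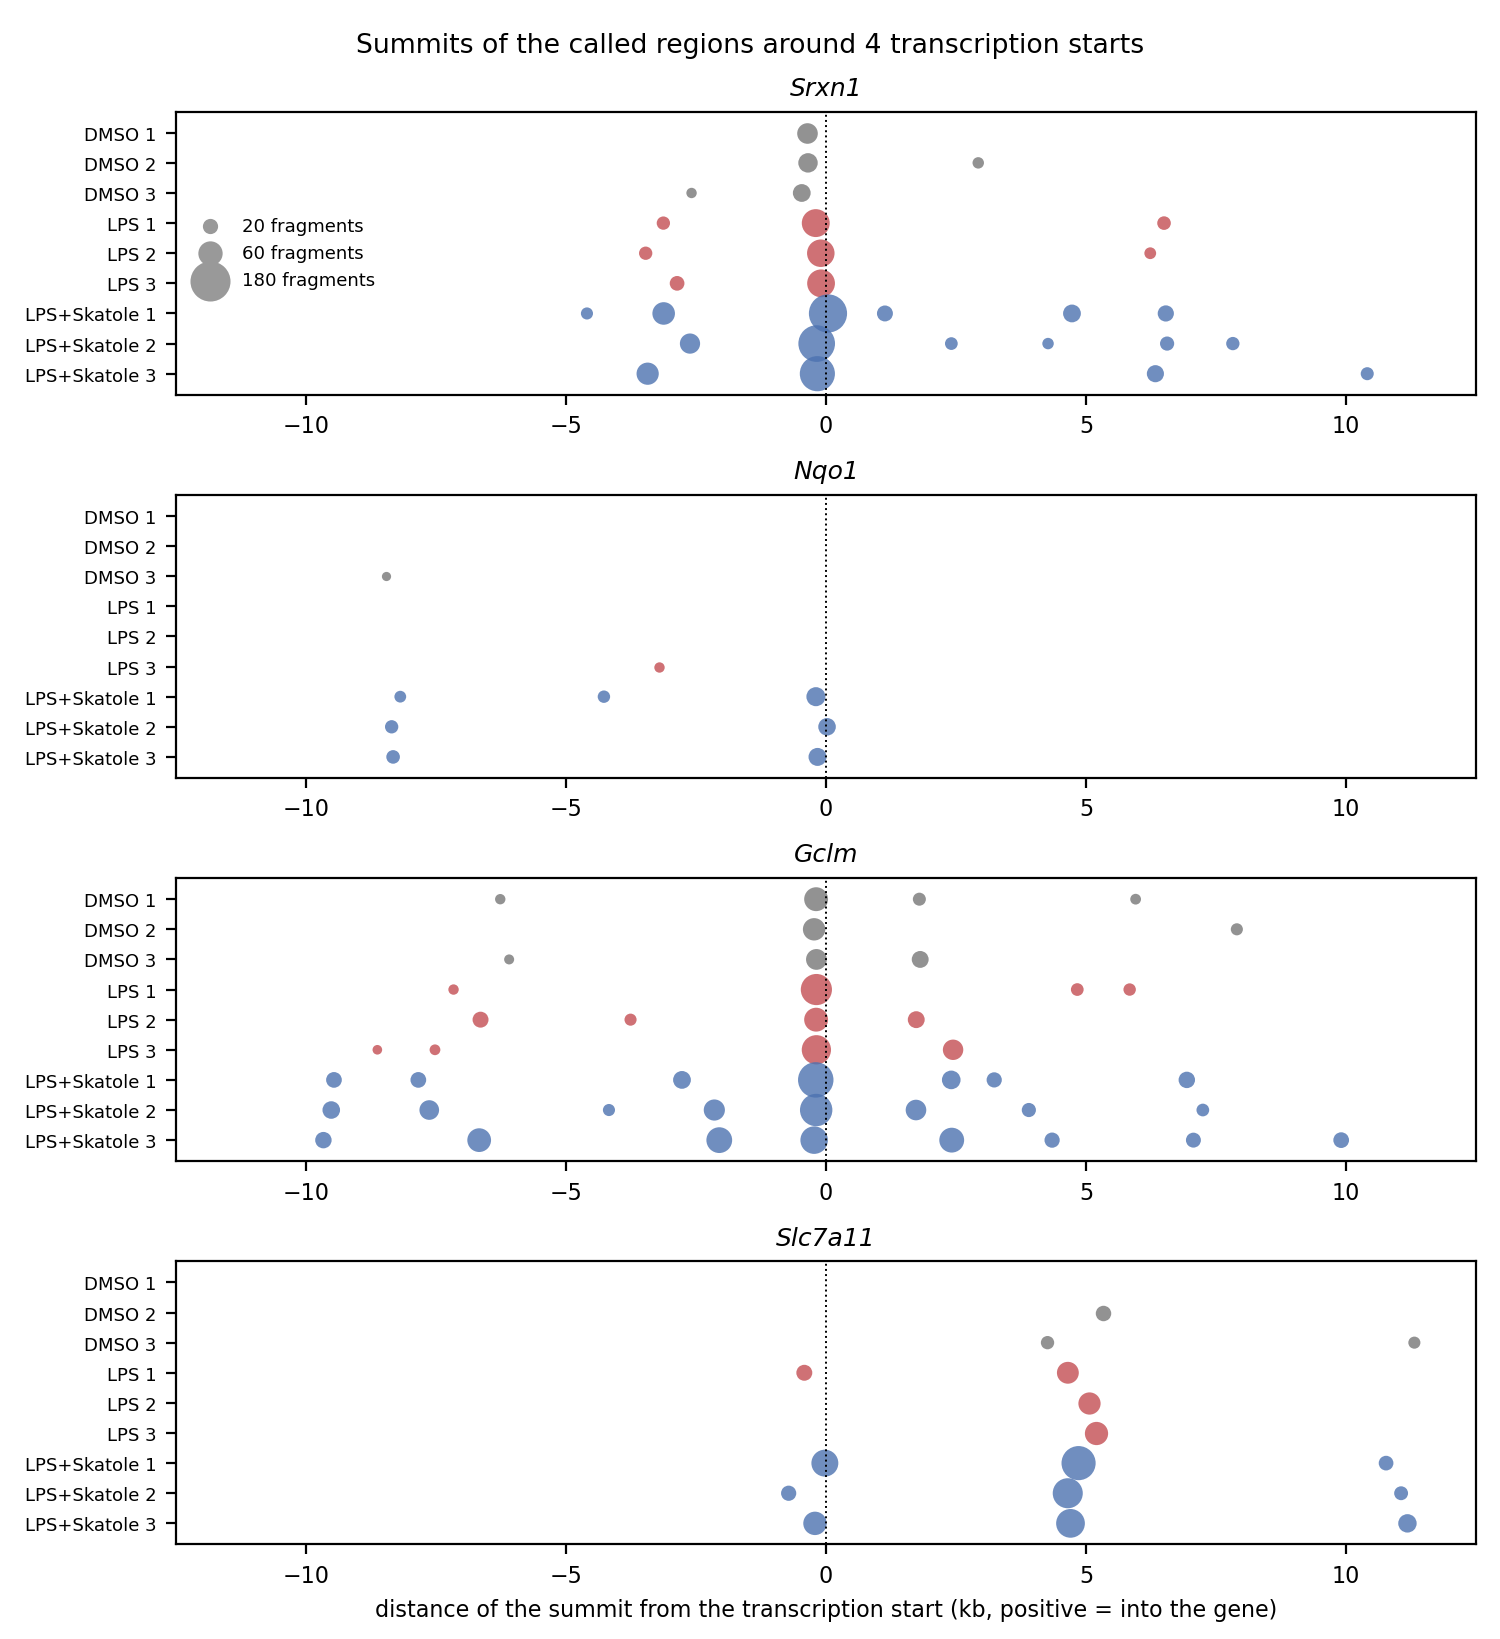
Position of region summits from the transcription start (horizontal axis, kb, negative upstream) in each of the 9 libraries (rows) at Srxn1, Nqo1, Gclm and Slc7a11. The area of a point is the fragment count at the summit. The Gclm summit at the start keeps its place in all libraries, and the Nqo1 start has summits with LPS+Skatole only.

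Rank within a list was compared for the strongest peak of each gene. It uses 1 peak per gene, but that peak is taken from all peaks in the window, so it is not independent of their number. A longer list moves a rank from the top downwards and a percentile upwards, so both are given. With LPS+Skatole against LPS, 9 of the 10 genes had a peak in all 6 libraries. Srxn1 and Gsr lay nearer the top in every LPS+Skatole library, 2 of 9 where 5.66% of 13229 genes did, and that of Gsr rests on the region at Ubxn8. Keap1 and Hmox1 lay further from the top, 2 of 9 where 8.86% of genes did. The Hmox1 peak, here and below, is the region at Mcm5 in all libraries but LPS+Skatole library 3. With LPS+Skatole against DMSO, Srxn1, Slc7a11 and Gsr were nearer the top, 3 of 10 where 7.24% of 12084 genes were, and Keap1 and Hmox1 further from it, 2 of 10 where 15.0% were. With LPS against DMSO, Gsr was nearer the top, where 7.02% of 11958 genes were, and Hmox1 further from it, where 10.1% were. Expressed as a percentile of its list, the strongest peak differed by a median of 4.19, 2.74 and 10.4 percentage points over the genes in these comparisons (LPS against DMSO, LPS+Skatole against LPS, LPS+Skatole against DMSO), beside 2.23, 1.28 and 3.80 over all genes, in lists that were themselves longer. These medians depended on single libraries, since leaving out 1 library gave 1.60 to 5.62, 1.58 to 2.91 and 7.55 to 10.9. By percentile, Srxn1, Slc7a11, Gsr and Txnrd1 were higher with LPS than with DMSO, 4 of 9 where 19.9% of genes were, and 0 were lower, where 2.39% were. With LPS+Skatole, Srxn1, Slc7a11 and Gsr were higher than with LPS, 3 of 9 where 15.0% of genes were, and Keap1 and Hmox1 lower, where 3.02% were. Against DMSO, the same 3 genes and Gclm were higher with LPS+Skatole, 4 of 10 where 31.5% of genes were, and Hmox1 was lower, where 1.56% were. Keap1 thus overlapped DMSO by percentile, and Hmox1 overlapped between LPS and DMSO. The strongest peaks of Nfe2l2 and Gclc overlapped between treatments by both measures in all 3 comparisons.

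The highest summit count of each gene was also divided by the genome background of its library. With LPS against DMSO, 0 of 9 genes were higher, where 2.53% of genes were, and 3 (Nfe2l2, Keap1 and Hmox1) were lower, where 29.4% were. Between LPS+Skatole and LPS, 3 of 9 (Srxn1, Slc7a11 and Gsr) were higher, where 22.8% of genes were, and 0 were lower, where 1.77% were. Between LPS+Skatole and DMSO, 4 of 10 (the same 3 and Nqo1) were higher, where 9.29% of genes were, and 1 (Nfe2l2) was lower, where 14.5% were. For Slc7a11 the values were 29.3, 28.7 and 32.5 with LPS and 64.5, 51.8 and 45.6 with LPS+Skatole, and for Gsr 20.5, 25.1 and 31.2 against 47.9, 39.4 and 41.4. The peak with the highest count need not be the strongest, and the 47.9 at Gsr comes from a weak peak called in LPS+Skatole library 1 alone, with an authors' fold of 1.66. Without that peak and the region at Ubxn8 the value in this library was 29.9, which lay within the LPS values.

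**Figure D5:**
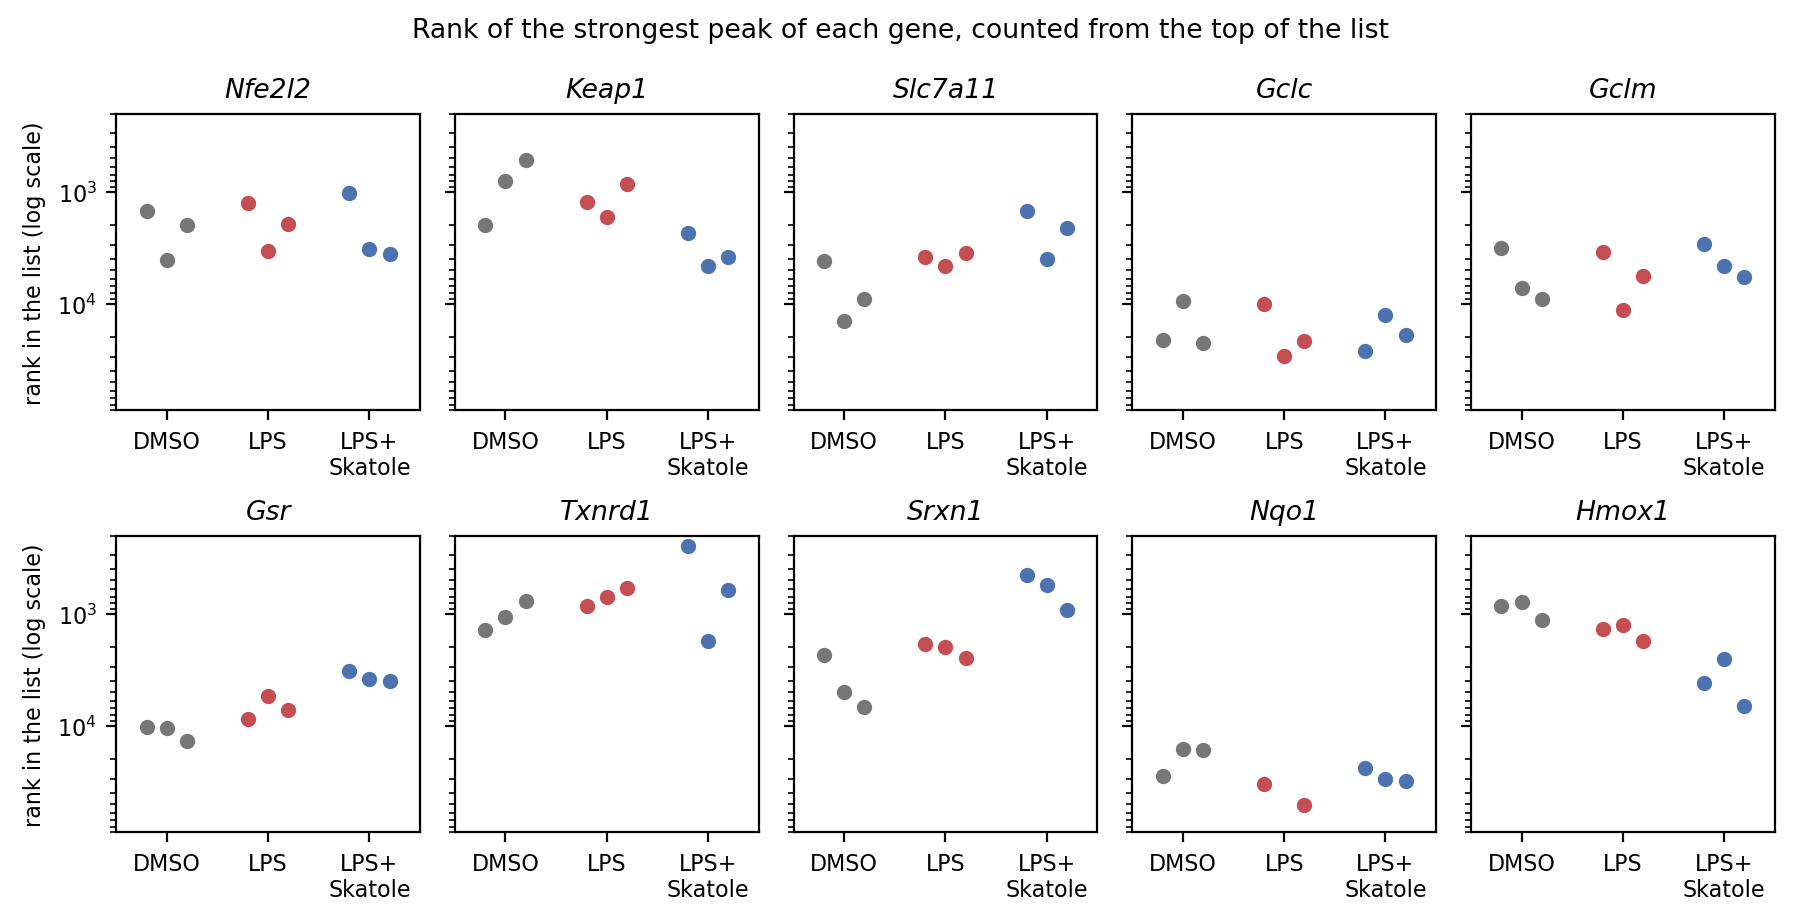
Rank of the strongest peak of each gene, counted from the top of the list of each library by −log10 p (vertical axis, logarithmic, strongest at the top). Points are libraries, and LPS library 2 had no Nqo1 peak. Srxn1 lies at 1853 to 2467 in LPS and at 446 to 917 in LPS+Skatole, while Keap1 and Hmox1 lie lower in the longer LPS+Skatole lists.

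The 10 genes together held 191 of 235070 regions, where peaks of the 9 lists that overlapped by at least 1 bp were merged. Of the 191, 21 (11%) were called in all 9 libraries, beside 5.88% of all regions and 7.17% of those in the windows of all protein-coding genes. A single library accounted for 96 (50.3%), beside 71.3% of all regions and 67.6% of those in the windows of all protein-coding genes. A region was gained when called in all 3 libraries of the first group and 0 of the second, and lost in the opposite case. Each comparison counts only regions called in at least 1 of its 6 libraries. With LPS against DMSO 3 of 116 were gained (Txnrd1, Slc7a11, Gsr), where 1.65% of 140204 regions were, and 0 lost, where 0.0685% were. Between LPS and LPS+Skatole 5 of 178 were gained (2 at Nqo1, 2 at Gclm, 1 at Slc7a11), where 0.583% of 204430 regions were, and 1 lost (Txnrd1), where 0.129% were. Between DMSO and LPS+Skatole 9 of 163 were gained, where 2.36% of 184201 regions were, and 0 lost, where 0.0434% were. With lists of equal length 1 of 88, 3 of 93 and 4 of 96 were gained in these comparisons, where 1.54%, 0.707% and 2.19% of all regions were, and 0 were lost, where 0.263%, 0.430% and 0.343% were. The gain at Slc7a11 with LPS (chr3:50412762-50414117, counts of 40, 35 and 29 with LPS and 26, 32 and 43 with LPS+Skatole) was among those that remained.

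Summit enrichment, the authors' fold over local background, was compared by limma over the regions with a value in every library, among them the 21 regions named above. At an adjusted p of 0.05 over 13824 such regions, 0 of the 21 were called in any comparison. In all regions 0.0796% were higher and 0.0362% lower with LPS against DMSO, 0.0289% and 0.0217% with LPS+Skatole against LPS, and 0.709% and 0.420% with LPS+Skatole against DMSO. At an unadjusted p under 0.05 limma gave 0 of the 21 with LPS against DMSO, where 5.10% of all regions were higher and 6.15% lower. It gave 0 higher and 1 lower with LPS+Skatole against LPS, where 3.41% and 4.69% were, and 3 higher and 4 lower with LPS+Skatole against DMSO, where 7.34% and 11.1% were. The median log2 difference of the 21 was 0.02, 0.23 and -0.03 in these comparisons, beside -0.08, -0.03 and -0.12 over all regions. These medians depended on single libraries, since leaving out 1 library of a comparison gave -0.17 to 0.01, 0.02 to 0.15 and -0.19 to 0.12, with 0.02 without LPS replicate 2 in the comparison of LPS+Skatole with LPS. By count over genome background the median in that comparison was -0.04.

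The Srxn1 start gave the smallest adjusted p of the 21. Its log2 fold, centred on the median of each library, was 0.91, 0.41 and 0.20 with DMSO, 0.94, 0.93 and 0.82 with LPS, and 1.51, 1.46 and 1.21 with LPS+Skatole. LPS+Skatole exceeded LPS by 0.50 ± 0.24 (SE; limma, adjusted p = 0.639) and DMSO by 0.89 ± 0.24 (limma, adjusted p = 0.111). The region of Slc7a11 called in all libraries exceeded DMSO by 0.92 ± 0.28 (limma, adjusted p = 0.135). The region at Mcm5 in the Hmox1 window differed from DMSO by -1.01 ± 0.28 (limma, adjusted p = 0.118). Without centring, the Srxn1 and Slc7a11 regions passed the threshold in this comparison, where the median of all regions was itself higher by 0.22.

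Between LPS+Skatole and LPS, regions that lacked a value in DMSO libraries could also be compared, and 32 regions of the genes were called in all 6 libraries. Of these, 0 passed the adjusted threshold in limma, where 0.0152% of 19799 regions were higher and 0.0202% lower. At an unadjusted p under 0.05, 3 of the 32 were higher and 1 lower in limma, where 3.57% and 4.99% of the 19799 were. A region upstream of the Srxn1 start (chr2:152101841-152103322, median summit at -3118 bp) had summit counts of 23, 23 and 28 with LPS and 66, 53 and 64 with LPS+Skatole, a log2 difference of 0.93 ± 0.23 (SE; limma, adjusted p = 0.437). A region 2344 bp beyond the end of Txnrd1 (chr10:82898285-82900768) had counts of 24, 27 and 29 with LPS and 61, 80 and 52 with LPS+Skatole, a difference of 0.88 ± 0.27 (limma, adjusted p = 0.496). At both places all LPS+Skatole counts lay above all LPS counts, and each was called in DMSO library 3 alone among the DMSO libraries, with 14 fragments at Srxn1 and 12 at Txnrd1. The share of all regions with such separate counts was not taken. Without centring, the median log2 difference of the 13824 shared regions between LPS+Skatole and LPS was itself 0.23. The other region that was higher lay upstream of Gclm (0.98 ± 0.41, limma, adjusted p = 0.575), and the one that was lower was that at Mcm5 (-0.78 ± 0.31, limma, adjusted p = 0.563).

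Other genes of the pathway were counted over a list of 30, from small Maf partners and the Keap1 ligase to peroxiredoxins, NADPH-forming enzymes and iron storage. With LPS against DMSO 5 of 30 were higher and 0 lower, with LPS+Skatole against LPS 4 higher and 2 lower, and with LPS+Skatole against DMSO 8 higher and 0 lower. As shares of the list, 16.7%, 13.3% and 26.7% higher lay close to the shares of all genes given above, while the 2 lower with LPS+Skatole against LPS were 6.67%, where 0.789% of all genes were. With equal lists the list gave 0 higher and 0 lower with LPS against DMSO, where 3.16% and 2.59% of all genes were. It gave 2 higher (6.67%) and 1 lower (3.33%) with LPS+Skatole against LPS, where 1.86% and 2.41% were, and 2 higher (6.67%) and 3 lower (10%) with LPS+Skatole against DMSO, where 3.65% and 3.64% were. Prdx1, a peroxiredoxin that removes hydrogen peroxide, held 4, 5 and 5 peaks with DMSO, 7, 5 and 9 with LPS, and 14, 15 and 14 with LPS+Skatole. It remained separate from both other treatments in equal lists, at 10, 9 and 10 peaks against 6, 4 and 6 with LPS.

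Osgin1, an oxidative stress response gene, held 4 to 5 peaks with DMSO, 5 in each LPS library and 7 to 8 with LPS+Skatole. Taldo1, an enzyme of the pentose phosphate pathway, held 4 to 5 with LPS and 6 to 8 with LPS+Skatole. Neither kept its separation in equal lists, where Taldo1 held 4, 5 and 4 peaks with LPS and 4, 3 and 4 with LPS+Skatole, and lay below DMSO with 7, 5 and 5. Slc3a2, the heavy chain that partners the Slc7a11 carrier, went the other way from its partner between LPS and LPS+Skatole, with 11, 10 and 10 against 8, 9 and 7 peaks, and Gpx1, a glutathione peroxidase, held 6, 5 and 5 against 4, 3 and 4. In equal lists Slc3a2 stayed lower (10, 7 and 7 against 6, 5 and 4) and Gpx1 overlapped. With LPS, Slc3a2, Gss (glutathione synthetase), Nfe2l1 (an Nrf2 relative) and the exporter Abcc1 were higher than with DMSO, and all overlapped in equal lists. With LPS+Skatole, Gss, Abcc1, Cul3 (the scaffold of the Keap1 ligase), Cat (catalase) and Sesn2 (sestrin 2) were higher than with DMSO. In equal lists only Abcc1 of these stayed higher (4, 5 and 8 against 15, 9 and 12), Gss, Cat and Sesn2 overlapped, and Cul3 turned, with 6, 5 and 7 peaks with DMSO and 4, 2 and 2 with LPS+Skatole. Fth1, the ferritin heavy chain, overlapped in the full lists and was lower in equal lists, with 10, 8 and 6 peaks with DMSO and 4, 5 and 5 with LPS+Skatole. Sqstm1, the autophagy receptor that binds Keap1, was higher at each step, with 3, 5 and 3 peaks with DMSO, 6, 7 and 6 with LPS, and 9, 10 and 9 with LPS+Skatole, but overlapped in equal lists.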

How the data were processed

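CUT&Tag for p65 was carried out on 9 libraries of RAW264.7 cells, 3 each with DMSO, LPS and LPS+Skatole. The authors called peaks in each library and deposited narrowPeak lists with a score, a fold over local background (a ratio) and −log10 p and q values. The deposited score follows the −log10 p and was not used. The submitters' processing notes name mm10 (GRCm38), fastp 0.20.1, HISAT2 2.1.0 and StringTie 2.0 without their roles, and the peak caller is not given in the sources used here. The total read number is unknown. Summit counts and the genome background were recovered from the deposited fold and −log10 p, taking fold as (count + 1)/(background + 1) and p as a Poisson upper tail, and over 99.99% of them were whole within 0.05 in every list. These counts bear on depth only as far as that model holds, and duplicate reads cannot be told from separate molecules.

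Peaks on the 19 autosomes, X and Y were assigned to RefSeq gene bodies (GRCm38.p6) extended by 10 kb and merged into regions at 1 bp of overlap. Where a library had several peaks in a region, the summit, count and rank given are those of the peak with the largest −log10 p. Peak numbers were compared by exact two-sided permutation tests with Benjamini-Hochberg adjustment over all genes with a peak in either group. The authors' log2 fold was tested with limma 3.58.1 in R 4.3.3, each library centred on its median, over 13824 regions called in all 9 libraries. Python 3.11.15, numpy 2.4.6, pandas 2.3.3, scipy 1.17.1 and matplotlib 3.10.9 were used, and the functions were tested on simulated data. Alternatives were other windows, equal list length, stricter thresholds, other region rules and normalisations, and leaving out each library. All 10 genes were named whatever their values, and of 30 other pathway genes those separated in a comparison. The genes and lists were chosen with earlier results of these data known. The caller, the Blank library and peak sequences were not analysed here.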

Additional observations from a re-analysis of the deposited data

How the results depend on the processing

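The lists end at the caller's threshold, the DMSO libraries are shallower, and a place without a peak has no value, so presence, number and region calls all move with list length and depth. Part of each difference in peak number cannot be told apart from list length.

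With equal list lengths, the number of genes higher was 0 for LPS against DMSO, with 1 lower, and 2 in each of the comparisons with skatole. Regions gained were then 1, 3 and 4 in the 3 comparisons, and the 1 region lost with LPS+Skatole against LPS was 0. With gene bodies alone the numbers higher were 2, 1 and 3, where 9.96%, 7.17% and 19.8% of all genes were, and the 1 lower with LPS+Skatole against LPS was 0, where 0.707% were. The region lost was also 0 with a −log10 q of at least 5 and with summit counts of at least 8 times the genome background, where 0.148% and 0.172% of all regions were lost. When 2 of 3 libraries sufficed, 10, 19 and 25 regions were gained, where 6.17%, 3.74% and 7.74% of all regions were, and 1, 6 and 2 lost, where 0.842%, 1.40% and 0.492% were. For LPS+Skatole against DMSO, 2 shared regions were higher without centring (Srxn1, Slc7a11), where 4.09% of all shared regions were. By count over genome background 1 was higher (Srxn1) and 2 lower (Nfe2l2, Hmox1), where 2.76% and 1.72% were. The adjusted p for the Srxn1 region in this comparison ranged from 0.0218 to 0.241 over its limma alternatives, that for Slc7a11 from 0.034 to 0.279, that for the Hmox1 window from 0.0319 to 0.225 and that for Nfe2l2 from 0.0289 to 0.995. Ranked by fold, the median difference in percentile of the strongest member peak was 5.95 with LPS alone and 8.57 with LPS+Skatole, each against DMSO, and 4.19 and 10.4 by −log10 p. The cause was not tested.

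Differences in mean peak number changed sign as follows. For LPS against DMSO, Gclc became 0.333 and Srxn1 -0.333 in gene bodies alone, and Gclm became -2.67 with equal lists and -0.667 at 8 times the background. For LPS+Skatole against LPS, Nfe2l2 became 0.333 in a 3 kb window and 1.33 in the gene body, and Gsr became -0.667 with equal lists. For LPS+Skatole against DMSO, Keap1 became -1 in the gene body, -1.67 with equal lists and -1.33 at 8 times the background, and with equal lists Nfe2l2 became -0.333 and Gclc -1.67.

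Leaving out a library leaves fewer libraries to agree, so region calls can only become more frequent. Without each library in turn, regions gained ranged from 4 to 7, 5 to 13 and 9 to 16 in the 3 comparisons, and lost from 0 to 1, 1 to 4 and 0 to 1. The shares of all regions gained then ranged from 2.33% to 3.78%, 0.968% to 1.93% and 3.02% to 5.13%, and of those lost from 0.140% to 0.423%, 0.300% to 0.627% and 0.10% to 0.244%. The largest numbers gained were without LPS replicate 1 or DMSO replicate 3, without LPS+Skatole replicate 3 and again without LPS+Skatole replicate 3, and the most lost, 4, was without LPS replicate 1. The numbers of genes higher ranged from 4 to 6, 4 to 6 and 7 to 9, where 16.8% to 21.4%, 12.9% to 15.7% and 30.2% to 35.0% of all genes were. The median difference in percentile ranged from 1.60 to 5.62, 1.58 to 2.91 and 7.55 to 10.9, lowest without LPS replicate 1, LPS replicate 2 and DMSO replicate 3. The difference in mean peak number ranged from -0.833 to 0.167 for Nqo1 and for Gclc and from -0.333 to 2 for Hmox1 (LPS against DMSO), from -2.5 to 0.167 for Nfe2l2 (LPS+Skatole against LPS) and from -0.167 to 1.33 for Keap1 (LPS+Skatole against DMSO), which changed sign.

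The replicate numbers did not pair the libraries: correlations of deviations were -0.0097 to 0.016 for the 9 same-number pairs and -0.028 to 0.017 for the 18 others. With a replicate block in the sign-flip test, the number of genes higher in all numbered pairs was 6, 5 and 7 in the 3 comparisons, where 21.7%, 16.2% and 35.5% of all genes were, and lower 0, 1 and 0, where 0.858%, 1.97% and 0.382% were. Limma with a replicate block called 0 of the 21 regions in each of the 3 comparisons. Of all 13824 regions it called 0.00% higher and 0.00723% lower, then 0.0289% and 0.0217%, then 0.0868% and 0.0434%.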
